A study of Arabidopsis thaliana with 6 samples.

Results

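TRY (TRIPTYCHON, AT5G53200) and SIM (SIAMESE, AT5G04470) are 2 of the 13356 Arabidopsis thaliana genes that could be named and tested on 6 expression arrays of seedlings. They were picked by gene symbol, with earlier results of these data known, and each is read by 1 probe set. The arrays came from seedlings of the mutants bin4-1 and bin4-2 and from wild-type (WT) seedlings, with 2 arrays per genotype. The alleles are mutant forms of BIN4, a component of plant topoisomerase VI, and the series title places them in a study of whether this enzyme helps to hold back heterochromatin from islands of euchromatin. The labels give the tissue only as seedlings and name no age, growth condition, background line or nature of either mutation. Nothing in them says that the arrays of a genotype came from separate cultures, so the p-values speak only of how far these arrays scatter, and that scatter may be technical.

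Leaf trichomes of Arabidopsis are single branched epidermal cells. A young epidermal cell takes this fate when a complex of MYB, bHLH and WD40 proteins switches on its targets, and it then copies its genome repeatedly without dividing, which is called endoreduplication. TRY is a small MYB protein with a single DNA-binding repeat and no activation domain. It moves from the developing trichome into neighbouring cells, where it competes for the bHLH partner and keeps them from becoming trichomes. SIM inhibits cyclin-dependent kinases and holds back mitosis in the trichome, and in its absence trichomes become multicellular. Topoisomerase VI untangles DNA during the later rounds of endoreduplication, and mutants that lack it stay small, with cells of low ploidy.

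The 6 arrays were close in overall brightness, with a median intensity of 26.0 to 27.0. Arrays of the same genotype correlated at 0.995 to 0.997 across probe sets, and mutant with WT arrays at 0.905 to 0.916. Arrays of bin4-1 correlated with those of bin4-2 at 0.995 to 0.996, about as closely as arrays of the same genotype. Changes were widespread. Of the 13356 genes, 25.0% were lower and 22.0% higher in bin4-1 than in WT, and 26.6% were lower and 21.1% higher in bin4-2, at an adjusted p under 0.05 in limma, a linear model fitted to log2 intensity for every gene. BIN4 itself (AT5G24630), whose log2 intensity averaged 3.33 ± 0.04 in bin4-1, 2.98 ± 0.09 in bin4-2 and 3.86 ± 0.11 in WT (SD, n = 2 each), was among the lower genes in both alleles. The position of its probe set with respect to either mutation is not known from the labels. BIN4 is dim, below the median of every array, which limits how its change is read.

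TRY was lower in both bin4 alleles, at about the same level in each. Its intensity was 10.5 and 11.0 on the bin4-1 arrays, 12.7 and 10.6 on the bin4-2 arrays, and 21.8 on each of the WT arrays. Every mutant array lay below both WT arrays, with no overlap, whereas the bin4-1 and bin4-2 arrays overlapped each other. Over all genes, all 4 mutant arrays lay below both WT arrays for 35.8%, so such a separation was common.

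On the log2 scale TRY averaged 3.42 ± 0.05 in bin4-1, 3.54 ± 0.18 in bin4-2 and 4.44 ± 0.0003 in WT (SD, n = 2 each). The bin4-1 change was -1.02 ± 0.11 (SE, 95% interval -1.27 to -0.77), a 2.03-fold lower intensity, with a limma adjusted p of 1.29e-05. The bin4-2 change was -0.91 ± 0.11 (95% interval -1.15 to -0.66), a 1.87-fold lower intensity, with an adjusted p of 3.5e-05. Both comparisons use the same WT arrays. These are sizeable but not extreme falls for these mutants: 6.71% of all genes had a lower value in the bin4-1 comparison and 7.67% in the bin4-2 comparison, where the median gene changed by -0.08 and -0.09. Averaged over both alleles, TRY changed by -0.96 ± 0.10 (adjusted p = 4.97e-06), in a comparison that called 28.8% of all genes lower.

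TRY is dim on these arrays, which limits how its fold is read. In the mutants 28.3% to 33.6% of probe sets were dimmer than TRY, against 45.3% and 46.0% on the WT arrays, and no background level was used here. Adding 16 to every intensity before taking the log gave TRY changes of -0.50 in bin4-1 and -0.45 in bin4-2, still past the threshold. In whole seedlings, fewer cells of a type and less RNA per cell cannot be told apart.

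**Figure D1:**
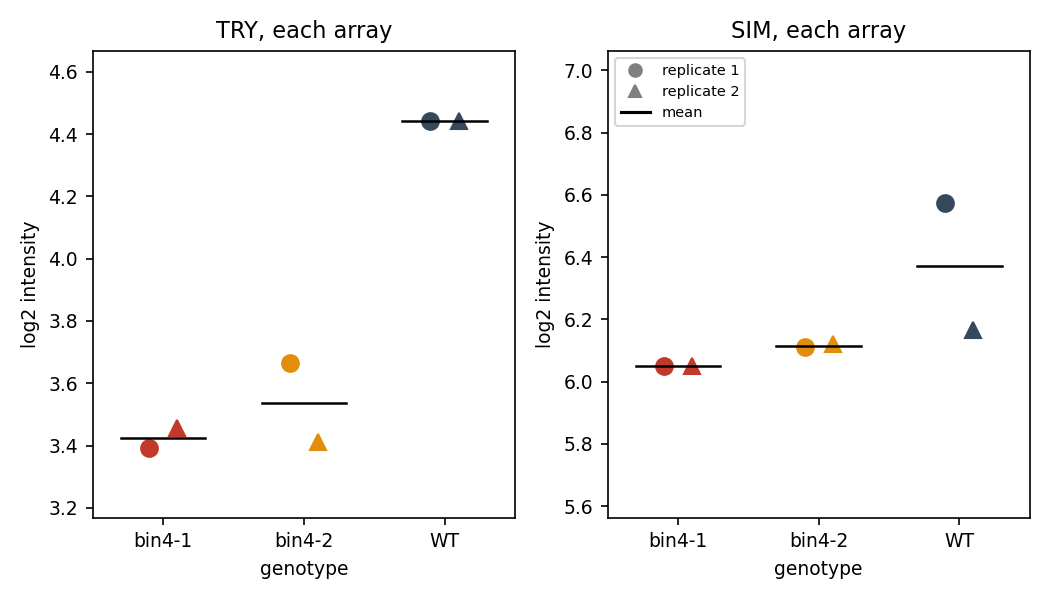
Log2 intensity of TRY (left) and SIM (right) on each array, by genotype, with replicate 1 as circles, replicate 2 as triangles and a line at the mean of each genotype; both vertical axes span the same number of log2 units and do not start at 0. All 4 mutant arrays lie below both WT arrays for each gene, by a wide margin for TRY, while for SIM the WT arrays stand apart from each other at 6.58 and 6.17.

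SIM was also lowest in the mutants, but its difference from WT was small and did not pass the threshold. Its intensity was 66.3 on each bin4-1 array, 69.1 and 69.6 on the bin4-2 arrays, and 95.4 and 71.8 on the WT arrays. The mutant arrays were nearly identical within each allele and all lay below both WT arrays, as for 35.8% of all genes. The WT arrays differed from each other more than the lower of them differed from any mutant array.

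The log2 level of SIM averaged 6.05 ± 0.0002 in bin4-1, 6.12 ± 0.01 in bin4-2 and 6.37 ± 0.29 in WT (SD, n = 2 each). Its bin4-1 change was -0.32 ± 0.13 (SE, 95% interval -0.61 to -0.03, limma adjusted p = 0.0654). Its bin4-2 change was -0.25 ± 0.13 (95% interval -0.54 to 0.03, limma adjusted p = 0.134). The mean of both alleles gave -0.29 ± 0.11 (95% interval -0.54 to -0.04, adjusted p = 0.0523), close to the threshold. Changes of this size were common, since 45.2% of all genes moved further in bin4-1 and 54.3% in bin4-2.

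The size of the SIM difference depends on which WT array is used. The WT arrays alone cannot show which of them is the more typical. The WT arrays differed by 0.41 at SIM, a gap reached in size by 5.73% of all genes, against a median gap of 0.13. Without WT replicate 1 the mean change of SIM was -0.08 (adjusted p = 0.566), and without WT replicate 2 it was -0.49 (adjusted p = 0.00295). TRY showed the opposite, since its WT arrays agreed to 0.0004 and its mean change stayed between -1.03 and -0.90 whichever array was left out.

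**Figure D2:**
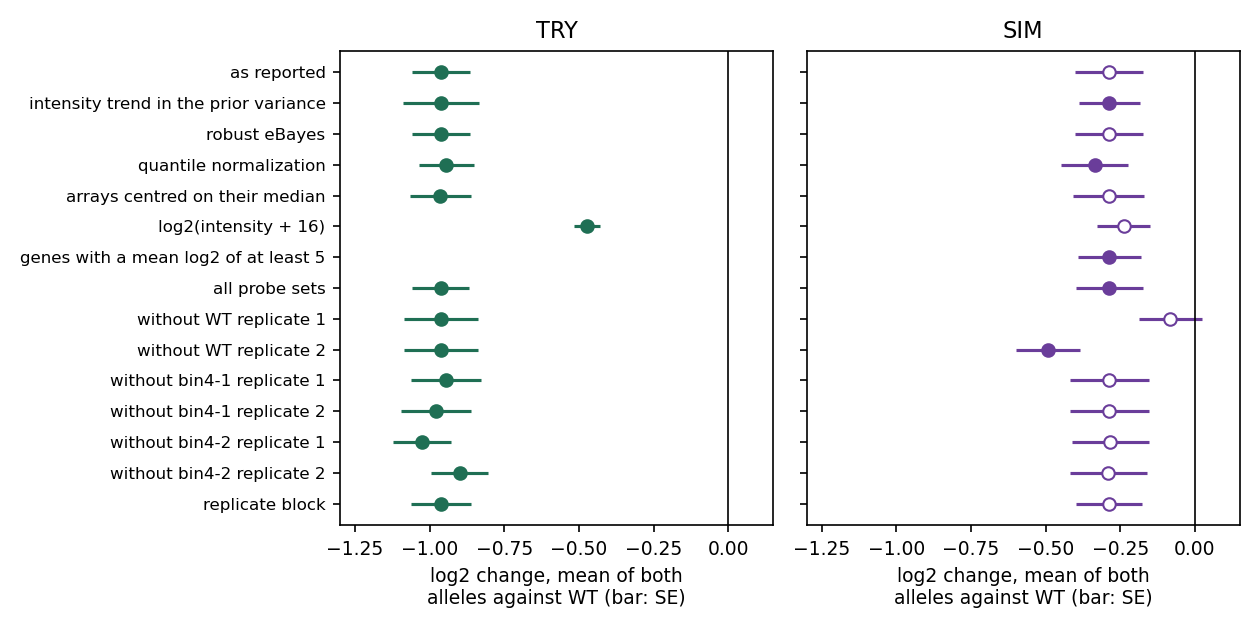
Log2 change of TRY (left) and SIM (right), mean of both alleles against WT, as reported and under each alternative way of processing, with SE bars, filled where the adjusted p was under 0.05 and open otherwise; TRY has no value under the filter on a mean log2 of at least 5. TRY is filled in every row with a value and moves to -0.47 with the offset of 16, while SIM is filled in some rows and open in others, with its extremes at -0.08 without WT replicate 1 and -0.49 without WT replicate 2.

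**Figure D3:**
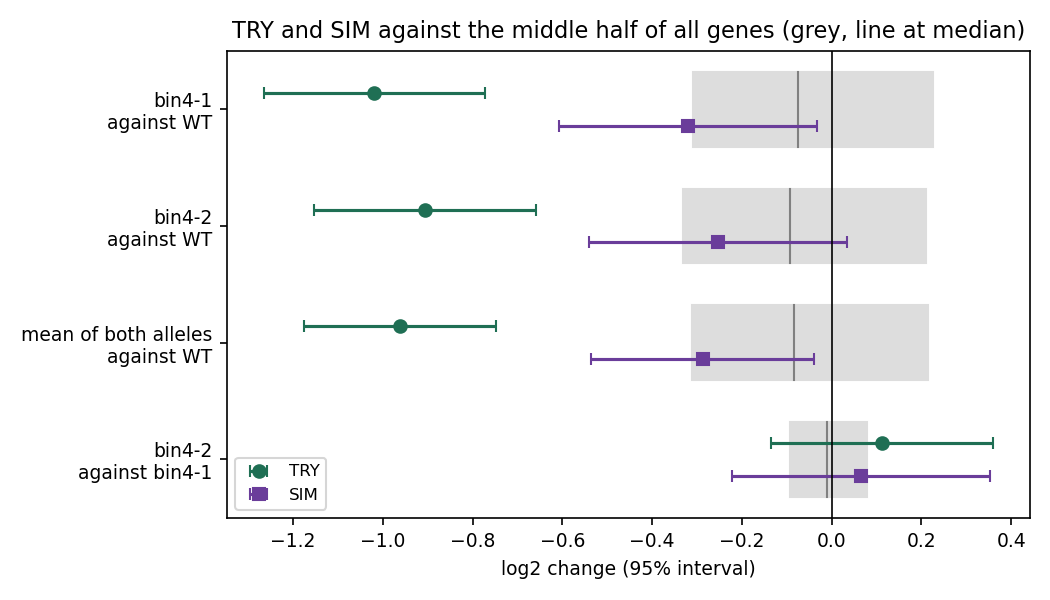
Log2 change of TRY (circles) and SIM (squares) with 95% intervals in each comparison, over a grey band from the lower to the upper quartile of all 13356 genes with a line at their median. TRY lies well to the left of the band in both comparisons with WT (-1.02 and -0.91), SIM lies at its lower edge or within it (-0.32 and -0.25), and both intervals span 0 between the alleles.

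Between the alleles neither gene differed past the threshold, as only 0.247% of all genes did. TRY was 0.11 ± 0.11 higher in bin4-2 than in bin4-1 on the log2 scale (SE, 95% interval -0.13 to 0.36, adjusted p = 0.922). SIM was 0.07 ± 0.13 higher (95% interval -0.22 to 0.35, adjusted p = 0.969). The intervals leave room for a difference of about 1.28-fold in favour of bin4-2 at either gene. The order of mean levels was bin4-1, then bin4-2, then WT for both genes. The alleles, next to each other in that order, did not differ past the threshold at either gene, nor did bin4-2 and WT at SIM. The sign for TRY rests on bin4-2 replicate 1, without which it was -0.01.

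Within each array, the log2 value of TRY less that of SIM was -2.71 to -2.45 on the mutant arrays, against -2.13 and -1.72 on the WT arrays. These groups did not overlap, and their means differed by -0.68, with the WT arrays 0.41 apart, which is their gap at SIM. How often other pairs of genes separate in this way was not counted. Of single genes, 35.8% had all 4 mutant arrays below both WT arrays. The two-sided exact permutation test run here over 4 mutant and 2 WT arrays cannot go below p = 0.133. It therefore cannot pass the threshold and says nothing for or against a deeper change of TRY.

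The other genes of trichome initiation that were measured fell with TRY. They are dim like TRY on the mutant arrays, so the same limit applies to how their folds are read. On the WT arrays they lay just above the median log2 values of those arrays, 4.72 and 4.75. Of 17 listed genes only ATMYC1 and GIS had a named probe set, and both were lower in both alleles, as were 25.0% of all genes in bin4-1 and 26.6% in bin4-2. ATMYC1 (AT4G00480), a bHLH factor related to the trichome-promoting bHLH proteins, had a log2 intensity of 3.46 and 3.58 in bin4-1, 3.60 and 3.50 in bin4-2, and 4.85 and 4.87 in WT. Its change was -1.34 ± 0.10 for bin4-1 and -1.31 ± 0.10 for bin4-2 (SE, limma adjusted p = 6.39e-07 and 8.02e-07). GIS (AT3G58070), a zinc-finger protein that promotes trichome formation downstream of gibberellin, stood at 3.89 and 4.07 in bin4-1, 4.14 and 3.86 in bin4-2, and 4.95 and 4.93 in WT. It changed by -0.96 ± 0.12 and -0.94 ± 0.12 (adjusted p = 3.79e-05 and 4.61e-05). So the repressor TRY and these activators of the same fate were lower together. Each had all 4 mutant arrays below both WT arrays, as did 35.8% of all genes.

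Of 14 listed genes that shape the trichome after its fate is set, 6 were measured, of which 3 fell, 1 rose and 2 did not pass in each allele. For comparison, bin4-1 had 25.0% of all genes lower and 22.0% higher, and bin4-2 had 26.6% and 21.1%, so calls in both directions were common. SPK1, which activates ROP GTPases that organise the cytoskeleton, had changes of -1.02 ± 0.14 for bin4-1 and -1.21 ± 0.14 for bin4-2 (SE). AT5G06700, TRICHOME BIREFRINGENCE, which acts in cellulose deposition of the trichome wall, changed by -0.74 ± 0.13 and -0.86 ± 0.13. PIR121, a subunit of the SCAR complex that activates actin branching, changed by -0.39 ± 0.11 and -0.58 ± 0.11. The actin-nucleating ARP2/3 subunit gene CRK went the other way, at 0.43 ± 0.11 and 0.44 ± 0.11. The SCAR subunit gene BRK1 gave -0.19 and -0.09, and the branching gene AN gave -0.07 and 0.00, without passing. The PIR121 call in bin4-1 was lost without WT replicate 2 (-0.32, adjusted p = 0.0746) or bin4-1 replicate 2 (-0.33, adjusted p = 0.114), and the CRK call in bin4-2 without bin4-2 replicate 2 (0.33, adjusted p = 0.0613).

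Leaving TRY out, 8 genes of these trichome lists were measured, of which 5 were lower and 1 higher in each allele. Their changes had a median of -0.56 for bin4-1 and -0.72 for bin4-2 on the log2 scale, against -0.08 and -0.09 over all genes, of which 25.0% and 26.6% were lower. With so few members measured, out of 37 listed besides TRY, this describes these genes and not the lists.

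**Figure D4:**
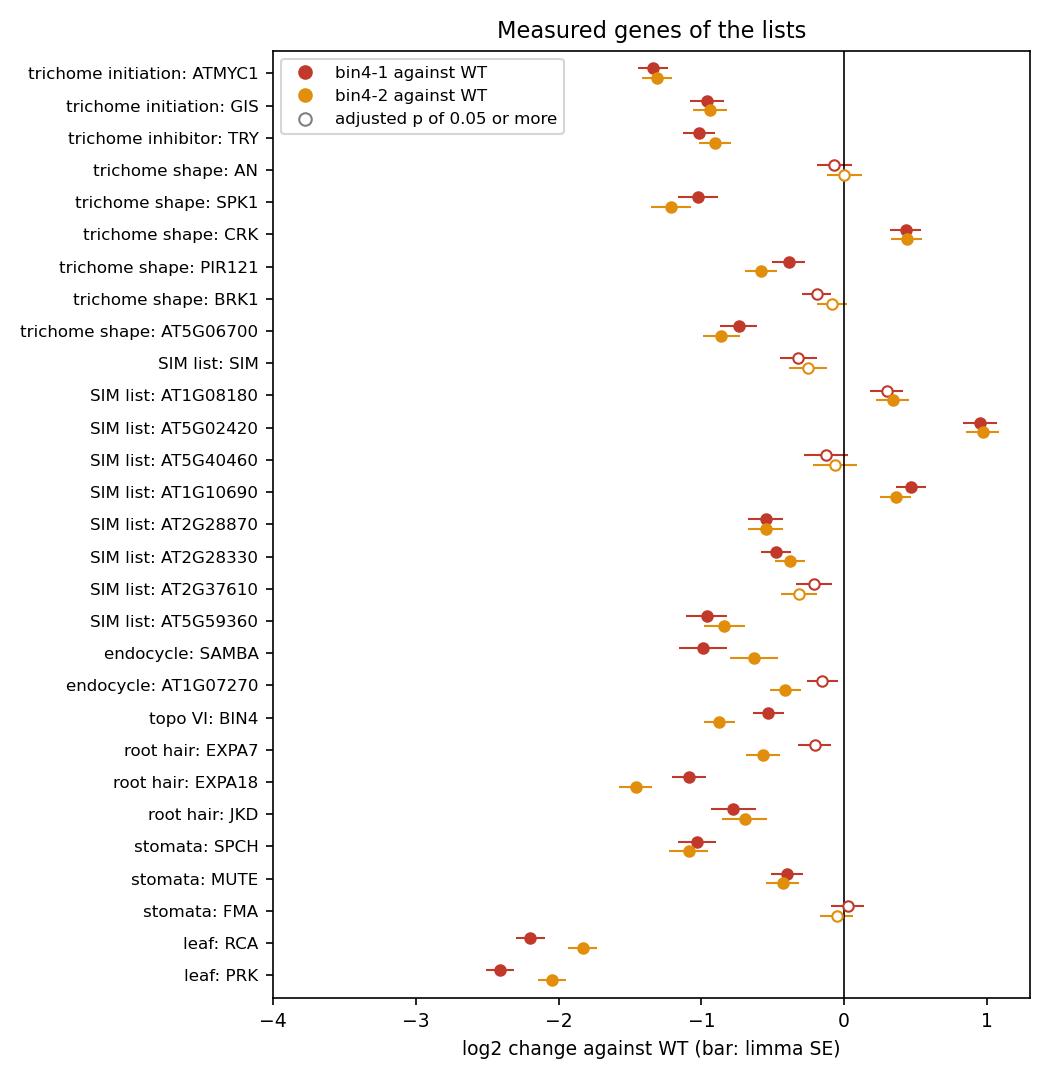
Log2 change against WT, with limma's SE as bars, of the 29 measured genes of the lists, red for bin4-1 and orange for bin4-2, with open symbols where the adjusted p was 0.05 or more. TRY and GIS lie near -1 and ATMYC1 further left at -1.34 and -1.31, while SIM lies among listed relatives that spread from about -0.96 to 0.97.

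Beside SIM, 8 loci entered as its relatives were measured. The annotation used here gives them no symbol, so they are given by locus and their roles are not stated. Of the 8, 3 fell, 2 rose and 3 did not pass in bin4-1, and 3 fell, 3 rose and 2 did not pass in bin4-2, with medians of -0.17 and -0.19. With so few loci, the counts are not read further beside the shares of all genes, 25.0% lower and 22.0% higher in bin4-1 and 26.6% and 21.1% in bin4-2. AT5G02420 was the highest, at a log2 intensity of 6.56 and 6.61 in bin4-1, 6.69 and 6.51 in bin4-2, and 5.52 and 5.75 in WT. Its change was 0.95 ± 0.12 for bin4-1 and 0.97 ± 0.12 for bin4-2 (SE, limma adjusted p = 2.88e-05 and 2.58e-05). AT5G59360 was the lowest, at 3.80 and 3.55 in bin4-1, 3.94 and 3.66 in bin4-2, and 4.48 and 4.80 in WT. It changed by -0.96 ± 0.14 and -0.84 ± 0.14 (adjusted p = 1.48e-04 and 4.23e-04). SIM, at -0.32 and -0.25, lay between them without passing.

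The remaining loci beside SIM changed less. AT1G10690 rose by 0.47 in bin4-1 and 0.36 in bin4-2, AT2G28870 fell by 0.55 in each, and AT2G28330 changed by -0.48 and -0.38. AT1G08180 gave 0.30 and 0.34 (adjusted p = 0.0526 and 0.0304), AT2G37610 gave -0.21 and -0.31 without passing, and AT5G40460 gave -0.13 and -0.06 without passing. AT5G40460 shared the uneven WT arrays of SIM, at 5.05 and 4.49, and passed in both alleles without WT replicate 2 (-0.40 and -0.34). Without WT replicate 1 its values were 0.15 in bin4-1 and 0.21 in bin4-2, neither past the threshold. In bin4-2 the calls of AT1G08180 and AT1G10690 were lost without WT replicate 1 (adjusted p = 0.145 and 0.068). The AT1G08180 call was also lost without bin4-2 replicate 1 (adjusted p = 0.171) and with an intensity trend (0.0535), and those of AT1G10690 and AT2G28330 without bin4-2 replicate 2 (adjusted p = 0.0996 and 0.0829). Other changes of call with an array left out brought AT1G08180 past the threshold in bin4-1 (without WT replicate 2) and AT2G37610 in bin4-1 (without bin4-1 replicate 1) and bin4-2 (without either bin4-1 array).

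Only 2 of 23 other listed endocycle regulators were measured. SAMBA, a plant-specific regulator of the anaphase-promoting complex, which destroys mitotic cyclins, had a log2 intensity of 4.58 and 4.52 in bin4-1, 4.60 and 5.20 in bin4-2, and 5.41 and 5.65 in WT. Its change was -0.99 ± 0.17 for bin4-1 and -0.63 ± 0.17 for bin4-2 (SE, limma adjusted p = 4.47e-04 and 0.00864). Its bin4-2 call was lost without bin4-2 replicate 1 (-0.33, adjusted p = 0.0907) or WT replicate 2 (-0.51, adjusted p = 0.0584). AT1G07270, listed here by locus, gave -0.15 for bin4-1 without passing (adjusted p = 0.278) and -0.41 for bin4-2 (adjusted p = 0.00813), the second lost without bin4-2 replicate 1 (adjusted p = 0.0608) and with the offset of 16 (0.0517). The lists of KRP inhibitors, which like SIM act on cyclin-dependent kinases, and of cyclins and their kinases had 0 measured members, so the partners of SIM were not analysed here.

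The 5 genes whose pattern over the 6 arrays was most like that of TRY were AT1G54310, the plastid gene ccsA, BLT, GIS and AT5G55580. Likeness was the root mean square difference between log2 values, each gene centred on its own mean, which was 0.05 for each of them and 0.44 for the median gene. GIS is described above as a gene of the trichome lists, and the other 4 are on none of the lists. BLT (BRANCHLESS TRICHOMES, AT1G64690) acts in trichome branching, ccsA in the assembly of plastid cytochromes, and AT5G55580 is the organelle gene-expression factor mTERF9. BLT stood at 3.59 and 3.71 in bin4-1, 3.85 and 3.57 in bin4-2, and 4.60 and 4.53 in WT. All 5 were lower in both alleles, as their choice by likeness to TRY implies.

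The genes most like SIM shared the high value on WT replicate 1, as their choice by likeness to SIM implies. They were AT5G60400, AT5G41380, AT2G30430, AT1G08210 and the pseudogene AT5G29090, with differences of 0.04 to 0.05 against 0.24 for the median gene. AT1G08210, the brightest, stood at 5.43 and 5.37 in bin4-1, 5.48 and 5.58 in bin4-2, and 5.94 and 5.60 in WT. None of the 5 has a symbol in the annotation used here. TRY and SIM themselves differed by 0.35 on this measure, where the median gene differed from TRY by 0.44 and from SIM by 0.24.

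TRY lies next to SPCH on chromosome 5, and both fell by about the same amount. SPCH (SPEECHLESS, AT5G53210), the bHLH factor that starts the stomatal lineage, another epidermal fate, had a log2 intensity of 3.79 and 4.11 in bin4-1, 3.89 and 3.90 in bin4-2, and 4.83 and 5.13 in WT. Its change was -1.03 ± 0.13 for bin4-1 and -1.09 ± 0.13 for bin4-2 (SE, limma adjusted p = 5.09e-05 and 3.3e-05). On the other side of TRY the adjacent sugar-transporter gene SWEET3 gave -0.00 and 0.06 without passing. Of the genes directly beside TRY, 1 fell with it and 1 did not pass.

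Of the 3 nearest measured genes on each side of TRY, 2 were lower and 2 higher in bin4-1, and 3 were lower and 2 higher in bin4-2. With 25.0% of all genes lower and 22.0% higher in bin4-1, and 26.6% and 21.1% in bin4-2, these counts over 6 genes are given as a description. AT5G53240 was the highest of them, with 1.52 ± 0.20 for bin4-1 and 1.16 ± 0.20 for bin4-2 (log2 change, SE). AT5G53140 changed by -0.46 and -0.55, and AT5G53150 by -0.10 and -0.43 (adjusted p = 0.616 and 0.0369). AT5G53220 gave 0.29 and 0.28 (adjusted p = 0.038 and 0.0476), which holds by a narrow margin. Its call was lost in bin4-2 with any of the arrays left out except WT replicate 1, and in bin4-1 without WT replicate 2 or either bin4-1 array. It was also lost in bin4-1 and bin4-2 with an intensity trend (adjusted p = 0.0656 and 0.0811) and the offset of 16 (0.104 and 0.122), and in bin4-2 with median centring (0.0507) or only the compared arrays (0.078). The AT5G53150 call in bin4-2 was lost without WT replicate 1 (adjusted p = 0.223) or bin4-2 replicate 1 (adjusted p = 0.294), and with the offset of 16 (0.0822).

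Around SIM, 3 of the 6 nearest measured genes fell and 1 rose in each allele, where 25.0% of all genes were lower and 22.0% higher in bin4-1, and 26.6% and 21.1% in bin4-2. AT5G04440 had log2 changes of -1.15 for bin4-1 and -1.105 for bin4-2, and AT5G04420 of -0.81 and -0.66. AT5G04480 changed by -0.48 and -0.62, while AT5G04520 rose by 0.54 and 0.60. The gene directly beside SIM, AT5G04460, gave -0.16 and -0.04 without passing, and AT5G04500 gave -0.10 and -0.01. SIM thus lay among neighbours that changed more than it did as well as among some that did not pass. The AT5G04480 call in bin4-1 was lost without WT replicate 2 (adjusted p = 0.0605) or bin4-1 replicate 2 (adjusted p = 0.0616).

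**Figure D5:**
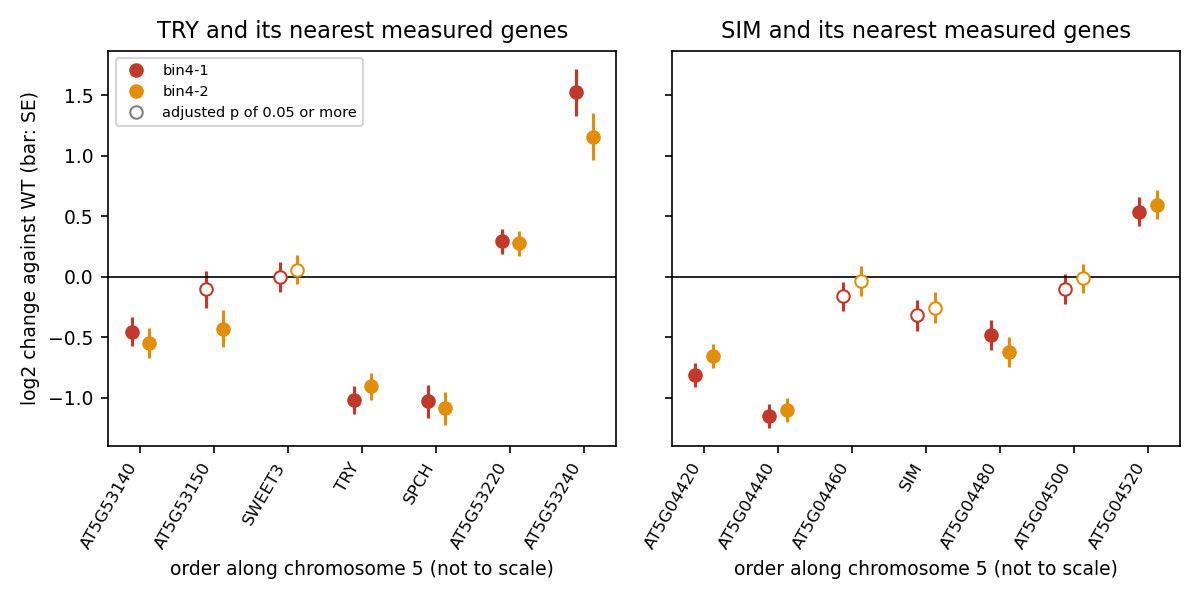
Log2 change against WT, with SE bars, of TRY (left) and SIM (right) and the 3 nearest measured genes on each side, in the order of RefSeq along the chromosome and not to scale; red is bin4-1, orange bin4-2, and open symbols had an adjusted p of 0.05 or more. TRY and the adjacent SPCH lie near -1 between SWEET3 at about 0 and AT5G53220 above 0.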

How the data were processed

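The deposited values are 1-colour array intensities on a linear scale that the authors made with RMA (background correction, normalization between arrays and a summary of the probes in a set). The tool is named in the submitters' processing notes, without version or settings, and the number of arrays, not a read depth, limits precision. Log2 was taken here. Of 22810 probe sets, 64 controls were left out, 13513 name 1 gene, 503 several and 8730 none in the platform annotation. Of the first, 13436 matched RefSeq (TAIR10.1) by gene ID, used for names and gene order only, and the brightest probe set was kept for each gene, which left 13356.

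limma 3.58.1 (R 4.3.3) fitted 3 group means to all 6 arrays (3 residual and 8.25 prior degrees of freedom), two-sided, with Benjamini-Hochberg adjustment over all genes and a threshold of 0.05. The fit was also run on simulated data with independent noise and far fewer changed genes than here. That run checked only whether the code works, not the calls on these arrays. Tables were made with pandas 2.3.3 and numpy 2.4.6 in Python 3.11.15, and plots with matplotlib 3.10.9. Groups follow the labelled genotype, and replicates were numbered in the order of the samples. Log2 differences between replicates 1 and 2 correlated between genotypes at -0.0449 to 0.0774. These values give no sign of pairing by number but cannot exclude it, and the labels state none.

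TRY, SIM and 13 lists of 151 genes, of which 29 were measured, were chosen with earlier results of these data known. Named are the measured list members, the 5 genes most like TRY and SIM and the 3 nearest measured genes on each side. Lists of protodermal and root genes had 0 measured members. The sequencing experiments of the design text were not analysed here.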

Additional observations from a re-analysis of the deposited data

How the results depend on the processing

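The fall of TRY passed the threshold in bin4-1, in bin4-2 and in their mean under every alternative that gives it a value: an intensity trend, robust moderation, quantile normalization, median centring, an offset of 16, all probe sets, only the 4 arrays compared (for the single alleles), a replicate block and each array left out. TRY lies below the filter on a mean log2 of at least 5 and has no value there. With arrays left out its change was -1.05 to -0.99 in bin4-1, -1.03 to -0.78 in bin4-2, -1.03 to -0.90 in their mean, and -0.014 to 0.24 in bin4-2 against bin4-1. The offset gave -0.50, -0.45 and -0.47, by its construction smaller for a dim gene. SIM ranged from -0.52 to -0.11 in bin4-1, -0.46 to -0.049 in bin4-2, -0.49 to -0.082 in their mean and 0.06 to 0.07 between the alleles with arrays left out. Without WT replicate 2 SIM passed in bin4-1 (-0.52, adjusted p = 0.00373) and in bin4-2 (-0.46, 0.0082). It also passed in bin4-1 under quantile normalization (-0.37, adjusted p = 0.0393), the filter (-0.32, 0.0364) and the trend (-0.32, 0.0293). Its mean over both alleles passed with the trend (-0.29, 0.0218), quantile normalization (-0.34, 0.0291), the filter (-0.29, 0.0298) and all probe sets (-0.29, 0.0499), and adjusted p ranged from 0.00295 to 0.566 over 14 alternatives. Under the filter 5380 genes were tested, and the SE of SIM in bin4-1 was 0.1226 against 0.1309 without it. The cause of these changes of call was not tested.

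With the replicate block the mean changes were TRY -0.96 (adjusted p = 1.51e-05) and SIM -0.29 (adjusted p = 0.0506), and no call of either gene changed. Among the other named genes the block ended the bin4-2 call of AT5G53220 (0.28, adjusted p = 0.0575). Genes past the threshold numbered 6271 in bin4-1, 6377 in bin4-2 and 6949 in their mean, of 13356 tested. As larger shares of those tested, they numbered 3927, 3934 and 4126 of 5380 under the filter. With all probe sets they numbered 11846, 12031 and 12996 of 22746, also larger shares. With arrays left out they ranged from 4879 to 6172, 5303 to 6003 and 6203 to 6670. Between the alleles 33 genes passed, 127 with the trend, 52 under the filter, 55 with all probe sets, 51 with only the compared arrays, 25 with the block, and 7 to 51 with arrays left out. Of the 18 other measured trichome and endocycle genes, 12 passed in bin4-1 (9 lower, 3 higher) and 14 in bin4-2 (10 lower, 4 higher). The matching shares of the 13356 tested genes were 25.0% and 22.0% for bin4-1, then 26.6% and 21.1% for bin4-2. The count among the 18 was followed across settings as a later addition. It was 4 in each allele under the filter, where fewer of the 18 were tested.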

Other observations

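Genes of other epidermal fates and of the leaf were also measured. Beside SPCH, the stomatal list held MUTE, which ends the divisions of the stomatal lineage, and FMA (FAMA), which sets guard cell fate. MUTE had a change of -0.40 ± 0.11 for bin4-1 and -0.43 ± 0.11 for bin4-2 (SE, limma adjusted p = 0.0125 and 0.00803), the first lost without bin4-1 replicate 1 (adjusted p = 0.163). FMA gave 0.02 and -0.05 without passing. MUTE is dimmer than TRY, at a mean log2 of 2.97 in bin4-1, 2.94 in bin4-2 and 3.37 in WT. This limits how its change is read. In the root-hair list, EXPA18, an expansin of growing root hairs, changed by -1.09 ± 0.12 and -1.46 ± 0.12, and JKD, a zinc-finger protein of root epidermal patterning, by -0.78 ± 0.16 and -0.70 ± 0.16. EXPA7, another root-hair expansin, gave -0.21 and -0.57 (adjusted p = 0.174 and 0.00163). So 2 of 3 measured stomatal genes fell in each allele, and 2 of 3 root-hair genes in bin4-1 and 3 of 3 in bin4-2, where 25.0% and 26.6% of all genes did.

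The leaf genes RCA, Rubisco activase, and PRK, phosphoribulokinase, fell in both alleles. RCA had log2 changes of -2.20 for bin4-1 and -1.83 for bin4-2, and PRK of -2.41 and -2.05, larger in size than those of TRY. Both were bright on every array. Whether the lower TRY moves with the amount of leaf tissue was not tested.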
